A study of Mus musculus with 4 samples.

Results

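A set of 435 cardiomyocytes rich in *Shox2* and *Vsnl1* and poor in *Myl2* was described in gastruloids cultured for 11 days. Gastruloids are aggregates of mouse embryonic stem cells that elongate and form derivatives of several germ layers. All libraries came from wild-type Zx1 cells, aggregated and pulsed with the Wnt agonist CHIR99021. Cultures were given bFGF, VEGF and ascorbic acid from day 4 to day 7. The day 4 library thus falls at the start of this treatment, those of days 5 and 6 within it and that of day 11 after its full course. Single-cell RNA counts were made at days 4, 5, 6 and 11 from 1 library per day, each prepared from several pooled gastruloids that the barcodes cannot tell apart. Differences between gastruloids or cultures could therefore not be measured, no test was possible and no p-value is given. Every interval below is at 95% and covers counting error only.

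The cells were chosen by the levels of 6 genes in the day 11 library. Of the 9584 cells deposited for that day, 8730 had at least 2000 UMIs (unique transcript molecules) and under 20% mitochondrial UMIs. Cardiomyocytes were those with at least 30 UMIs of *Myl7*, an atrial and early cardiac myosin light chain, per 10000 and at least 2 UMIs of *Tnni3* (cardiac troponin I) plus *Ryr2* (the calcium release channel). This left 1543 cells. Among them, 435 had at least 6 UMIs of *Shox2* plus *Vsnl1* per 10000 and fewer than 5 of *Myl2*, the ventricular myosin light chain. They made up 28.2% of the gated cardiomyocytes (26.0 to 30.5). They are called *Shox2*/*Vsnl1*-high cells below. The 1108 other cardiomyocytes fell into 599 with both measures under their limits (low in both) and 509 with high *Myl2* (*Myl2*-high), of which 63 also passed the *Shox2* plus *Vsnl1* limit (high in both).

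*Shox2* encodes a homeodomain factor of the sinus venosus and sinoatrial node, the inflow tissue in which the heartbeat starts. There it restrains *Nkx2-5*, a factor that drives the working chamber programme, and it favours *Isl1*, *Bmp4*, *Tbx3* and the pacemaker channel gene *Hcn4*. *Vsnl1* encodes a neuronal-type calcium sensor that is also found in sinoatrial tissue. Chamber muscle in turn uses *Nppa* (atrial natriuretic peptide), fast-conducting connexins and, in ventricles, *Myl2*, *Myl3* and *Myh7*. Immature myocardium also makes smooth muscle proteins such as *Acta2*.

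The gate values are a description of the choice. *Shox2* (chr3:66971727-66981771, minus strand, GRCm38) stood at 874 CPM (counts per 1000000 UMIs of the same cells) in the *Shox2*/*Vsnl1*-high cells and at 141 CPM in the other cardiomyocytes. *Vsnl1* (chr12:11325242-11436613, minus strand) stood at 394 and 57.8 CPM. Both transcripts were seen in 393 of the 435 cells (90.3%), *Shox2* alone in 39 and *Vsnl1* alone in 3, so *Shox2* carried most of the choice. The summed level ran from 6.01 to 53.3 per 10000 with a median of 11.7, and 309 cells (71.0%) held no *Myl2* UMI. The limit did not fall in a gap. The 49 cells at 5 to 6 per 10000 held 3556 CPM of *Acta2* and 69.1 CPM of *Hcn4*, and the 44 just inside, at 6 to 7, held 2480 and 68.8 CPM. *Tagln* stood at 148 CPM just outside and 326 just inside, and *Nppa* at 21.1 and 71.4 CPM, so *Nppa* was not lower just inside the limit. On the *Myl2* side, 5 cells lay just inside the limit (4 to 5 per 10000) and 7 just outside (5 to 6). High *Myl2* was found in 12.7% (9.86 to 15.9) of cells at or over the *Shox2* plus *Vsnl1* limit and in 42.7% (39.7 to 45.7) of those under it.

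**Figure D1:**
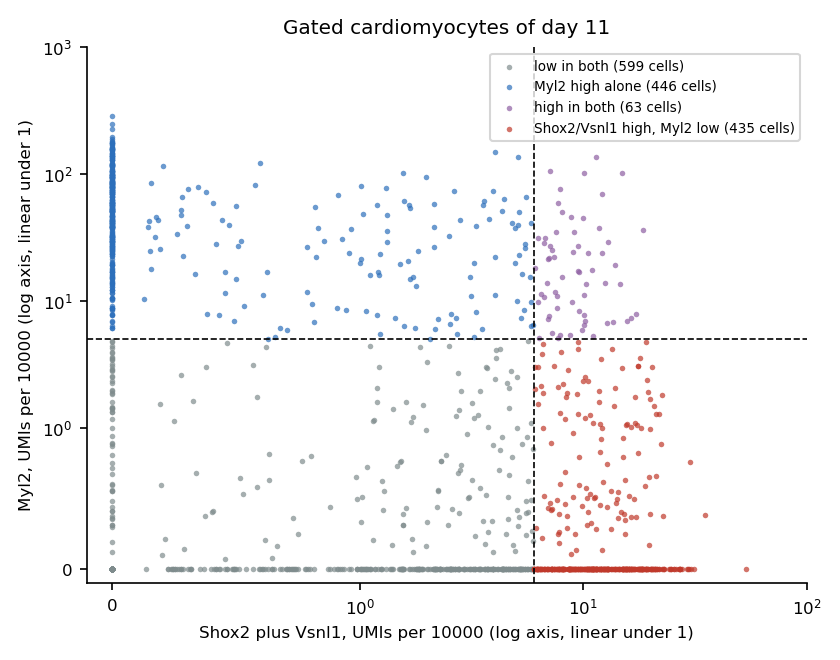
Each point is 1 of the 1543 gated cardiomyocytes of day 11, plotted by *Shox2* plus *Vsnl1* (x axis) and *Myl2* (y axis) in UMIs per 10000, on log axes that are linear under 1. Dashed lines mark the limits of 6 and 5. The 435 chosen cells fill the lower right and run into the 599 cells at lower left without a gap.

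Depth was similar across the classes. The median was 19698 UMIs in *Shox2*/*Vsnl1*-high cells, 19445 in cells low in both and 22156 in *Myl2*-high cells, against 12082 over all cells that passed the quality limits. The 63 cells high in both were deeper, at 31537 UMIs. The median mitochondrial share was 3.98% in *Shox2*/*Vsnl1*-high cells and 3.44% in the other cardiomyocytes. Cells in the top 8% of doublet scores made up 13.3% of the former and 19.9% of the latter, and their part in the differences below was measured by leaving them out. Barcodes of day 11 recurred in another library 57 times, 3 of them in the chosen cells.

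The cells were cardiomyocytes by genes the gate did not use. The 10 cardiomyocyte markers, none of them in the gate, summed to 33851 CPM, against 1232 CPM in cells outside the cardiomyocyte gate. In the other cardiomyocytes, which passed the same gate, they summed to 36950 CPM. *Tnnt2*, cardiac troponin T, stood at 5716 CPM against 5637 in the other cardiomyocytes, and cardiac actin *Actc1* at 8626 against 8782 CPM. Of 21 sarcomere genes, none was 2-fold higher and 3 (*Myl3*, *Myh7* and *Acta1*) were at least 2-fold lower, with a median ratio of 0.97. *Acta1* was under 10 CPM in the chosen cells and was counted only through its level in the others. *Acta2*, *Cald1* and *Ptn* are further markers by which such cells were named. They were picked from these same libraries, so their direction is not independent evidence. *Acta2* was 3.88-fold higher than in the other cardiomyocytes (3.83 to 3.94) and *Cald1*, an actin-binding regulator of smooth muscle contraction, 2.61-fold higher (2.501 to 2.73). *Ptn*, a secreted growth factor, did not reach 2-fold, at 531 against 357 CPM (ratio 1.49, 1.44 to 1.54). With the top 8% of doublet scores left out the *Ptn* ratio was 2.86. Against cells low in both its ratio was 1.12, and cells outside the cardiomyocyte gate held more of it, 2128 CPM.

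Ratios were computed for 7798 genes at 10 CPM or more over all gated cardiomyocytes, leaving out the 6 gate genes. At least 2-fold higher in *Shox2*/*Vsnl1*-high cells than in all other cardiomyocytes were 110 genes (1.41%), and 95 (1.22%) were at 0.5 or less. Because the rule excludes *Myl2*-high cells, that comparison mixes 2 contrasts, and each is also given alone. Against cells low in both, 81 genes (1.04%) were higher and 83 (1.06%) lower. Against *Myl2*-high cells, 172 (2.21%) were higher and 113 (1.45%) lower. The median ratio over all genes was 1.05, 1.05 and 1.07. These counts describe 1 library and are not counts of tested changes. The percentages are the shares over all genes that belong beside the sarcomere count above and each list count below.

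Of the ion channel genes of pacemaker tissue, *Hcn4* and *Cacna1d* were at least 2-fold higher in the *Shox2*/*Vsnl1*-high cells, and the others at 10 CPM or more were not. *Hcn4* (chr9:58823412-58863175, plus strand) encodes the main channel of the pacemaker current. It stood at 148 CPM (141 to 156), against 43.5 (40.3 to 46.9) in cells low in both and 37.7 (34.7 to 41.0) in *Myl2*-high cells, which is 3.64-fold above all other cardiomyocytes (3.37 to 3.92). *Cacna1d*, the L-type calcium channel that opens at low voltage in nodal cells, stood at 94.1, 33.1 and 29.6 CPM in the same order. Both channels thus had their highest level in the chosen cells and differed less between the remaining classes. In the list of 10 channel and connexin genes, 7 reached 10 CPM, of which these 2 were at least 2-fold higher against each comparison and none was lower. The auxiliary subunit *Cacna2d2* was 1.71-fold higher. *Cacna1h*, a T-type calcium channel, was at 0.75, and *Gjc1*, the slow-conducting connexin of the node, at 1.02. The acetylcholine-gated potassium channel genes *Kcnj3* and *Kcnj5* were at 1.4795 and 1.54.

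After thinning every cell to 5000 UMIs, *Hcn4* was detected in 46.6% (41.7 to 51.5) of 412 *Shox2*/*Vsnl1*-high cells, in 17.95% (14.9 to 21.4) of 557 cells low in both and in 12.9% (10.0 to 16.2) of 481 *Myl2*-high cells. The unthinned shares were 79.8%, 47.7% and 42.6%. In 474 endothelial cells, which lack this channel and give the level of free RNA, thinned detection was 0 cells, which allows up to 0.633%, and unthinned detection was 1.43% at a median of 22832 UMIs. *Cacna1d* was detected in 30.8%, 16.3%, 12.5% and 0.844% of thinned cells of those 4 kinds. *Hcn4* and *Cacna1d* transcripts were therefore above background in every cardiomyocyte class, and more frequent in the chosen cells. Where no endothelial share stands beside the shares of a gene below, free RNA may be part of them.

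**Figure D2:**
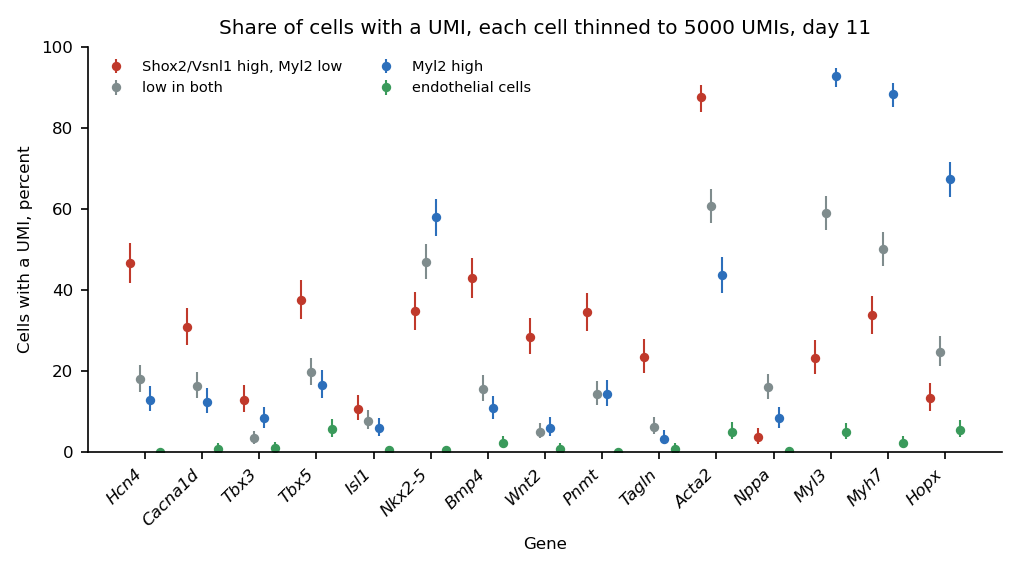
Percent of cells with at least 1 UMI (y axis) for 15 genes (x axis) in 3 cardiomyocyte classes and in endothelial cells of day 11, each cell thinned to 5000 UMIs. Points are shares and bars exact 95% Clopper-Pearson intervals. *Hcn4* was detected in 46.6%, 17.95% and 12.9% of the cardiomyocyte classes, and *Myl3* ran the other way, at 23.3%, 59.1% and 92.7%.

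Among the transcription factors of the node, *Tbx3* and *Tbx5* were at least 2-fold higher than in all other cardiomyocytes and *Tbx2* at least 2-fold lower, out of 9 genes of a list of 11 that reached 10 CPM (median ratio 1.52). *Tbx3* represses chamber genes in the conduction system. It stood at 32.5 CPM (29.1 to 36.3), against 8.64 (7.24 to 10.2) in cells low in both and 16.4 (14.4 to 18.6) in *Myl2*-high cells. *Tbx2*, its close relative, ran the other way, at 2.18 CPM (1.36 to 3.30) against 12.7 and 13.5. It reached the 10 CPM level only through the other cells. *Tbx3* was found in 12.9% and *Tbx2* in 0.971% of thinned chosen cells. *Tbx5*, which acts in inflow and atrial tissue, stood at 91.5, 47.4 and 41.2 CPM. Its ratio to all others was 2.06 and fell to 1.86 with a *Myl7* limit of 100. It was at 2 or more in 8 of the 11 alternatives that change the cells or how they are averaged. In each separate contrast only 1 gene of the list was at least 2-fold higher. This was *Tbx3* (3.77) against cells low in both and *Tbx5* (2.22) against *Myl2*-high cells.

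*Isl1*, a factor of second heart field progenitors and of the node, was higher but not at the 2-fold limit (ratio to all others 1.52). It stood at 29.1 CPM, against 20.3 in cells low in both and 17.96 in *Myl2*-high cells. *Tbx18*, which marks the sinus horns, was sparse, with 38 UMIs in all (3.76 CPM, ratio 2.55, 1.61 to 4.02), and the nodal factor *Msx2* was at 0.396 CPM. *Nkx2-5* stood at 99.4 CPM (93.4 to 106), against 134 (128 to 140) in cells low in both and 152 (146 to 159) in *Myl2*-high cells, a ratio of 0.695 to all others. It was found in 34.7%, 47.0% and 58.0% of thinned cells. It was thus lower, but still detected and not at the 2-fold limit. *Gata6*, *Gata4*, *Hand2* and *Mef2c*, broad cardiac factors, had ratios of 1.61, 1.54, 1.29 and 1.38.

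The secreted factors *Bmp4*, *Wnt2*, *Smoc2* and *Igfbp5* were at least 2-fold higher, while most listed genes of this kind were not. *Bmp4*, a ligand of inflow and node development, stood at 147 CPM (140 to 154.7), against 47.2 in cells low in both and 32.7 in *Myl2*-high cells. *Wnt2*, a ligand of the inflow region, stood at 99.8 CPM (93.8 to 106) against 17.1 and 16.96 in those classes, which is 5.85-fold over all others (5.26 to 6.52). Thinned detection of *Wnt2* was 28.4%, 5.03% and 6.03%. *Smoc2*, a matricellular protein of nodal cells, was 3.83-fold higher at 30.6 CPM, *Igfbp5*, an insulin-like growth factor binding protein, 2.47-fold at 1983 CPM, and the adhesion molecule *Ntm* 2.14-fold at 202 CPM. Of the 11 other nodal genes, 4 were at least 2-fold higher and none lower, where 1.41% and 1.22% of all genes were. Their median was 1.26, and *Smoc2* was counted only through its level in the chosen cells. *Rspo3*, a Wnt agonist, lay at 0.60. Of 12 detected genes for matrix and secreted factors, *Wnt2* alone passed 2-fold, with a median of 1.10 that is close to that of all genes.

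Another group of higher genes encodes proteins of smooth muscle and of the actin cytoskeleton. *Tagln* (chr9:45929619-45936058, minus strand), which encodes the actin-binding protein SM22, had the highest ratio of any gene at 50 CPM or more. It stood at 221 CPM (212 to 230), against 42.3 (39.1 to 45.6) in cells low in both and 13.5 (11.7 to 15.5) in *Myl2*-high cells, 7.83-fold above all others (7.23 to 8.47). Its ratio ran from 3.22, with a *Shox2* plus *Vsnl1* limit of 12, to 12.8, with cells holding mesenchyme transcripts left out. *Acta2*, smooth muscle actin, stood at 3973, 1358 and 672 CPM. *Csrp2*, a LIM protein of smooth muscle, stood at 2334, 798 and 786 CPM. All 3 were thus highest in the chosen cells, and *Tagln* and *Acta2* were next in cells low in both.

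*Myh11*, the myosin heavy chain of mature smooth muscle, was much rarer. Its 197 UMIs amounted to 19.5 CPM against 1.87 in all others (ratio 10.4, 7.74 to 14.3), but 20.8% of them came from 1 cell and 60.4% from 5 cells. Calponin *Cnn1* was 2.22-fold and *Tpm2* 2.24-fold higher, while *Myl9* (1.41), *Actb* (1.66), *Actg1* (1.69) and *Vim* (0.89) stayed under the limit. With a *Myl7* limit of 100 per 10000, *Cnn1* and *Tpm2* fell under 2, at 1.77 and 1.89. *Actb* and *Actg1* passed it with doublets left out, at 2.55 and 2.20. In the list of 18 smooth muscle and cytoskeletal genes, 15 reached 10 CPM, of which 5 were at least 2-fold higher and 1, *Fhl2*, lower, with a median of 1.52. Against cells low in both only *Tagln* and *Acta2* passed 2-fold, and against *Myl2*-high cells 8 did. The 8 markers of smooth muscle and mural cells, *Cnn1* and *Myh11* among them, summed to 316 CPM against 159 in all other cardiomyocytes and 125 in cells outside the cardiomyocyte gate. Most of that sum was *Cnn1*, at 264 CPM. Without *Cnn1* and *Myh11* the other 6 markers summed to 32.7 against 39.1 CPM, and 4 of them (*Pdgfrb*, *Cspg4*, *Kcnj8* and *Notch3*) were lower in the chosen cells than in all others.

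The short regulatory sequence best known from smooth muscle and sarcomere genes is the CArG box, bound by serum response factor. It was searched on both strands, which read alike, in RefSeq promoter windows (GRCm38.p6, 250 bases before to 50 after each start site). Only the strict form CCWWWWWWGG, where W is A or T, was counted, so looser forms of the box were missed. It was present in 1.81% of 27025 genes with a window, in 3 of 12 smooth muscle and cytoskeletal genes with one (*Actg1*, *Fhl2*, *Myl9*) and in 5 of 17 sarcomere genes (*Acta1*, *Actc1*, *Ldb3*, *Myl3*, *Myom1*). *Tagln* and *Myh11* were not among the genes with a window, so their promoters were not searched. A further *Fhl2* window, at chr1:43196803-43196902 (minus strand), also held a box and is not shown. The 4 stretches below are shown because genes with the same box lay on both sides: the ratio to all other cardiomyocytes was 1.69 for *Actg1* and 1.41 for *Myl9*, but 0.447 for *Fhl2* and 0.0944 for *Myl3*. The box is in capitals. They are chr11:120348531-120348630 (minus strand), chr2:156775258-156775357 (plus), chr1:43163938-43164037 (minus) and chr9:110763548-110763647 (plus).
Actg1: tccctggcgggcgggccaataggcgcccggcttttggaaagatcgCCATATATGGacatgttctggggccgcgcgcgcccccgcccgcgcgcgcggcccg
Myl9: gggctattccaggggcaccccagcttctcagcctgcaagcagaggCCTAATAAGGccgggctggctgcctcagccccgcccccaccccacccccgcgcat
Fhl2: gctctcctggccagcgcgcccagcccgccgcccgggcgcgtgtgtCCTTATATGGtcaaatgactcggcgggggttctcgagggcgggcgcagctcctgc
Myl3: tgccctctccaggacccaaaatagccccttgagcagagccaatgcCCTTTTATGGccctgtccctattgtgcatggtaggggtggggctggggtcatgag
A match is a description of these letters and not a measured site.

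Also among the 12 highest were *Pnmt*, *Calca*, *Uchl1* and *Gal*. *Pnmt*, the enzyme that makes adrenaline, stood at 226 CPM (217 to 235), against 45.7 in cells low in both and 61.8 in *Myl2*-high cells, and was found in 34.5%, 14.4% and 14.3% of thinned cells. *Calca*, which encodes calcitonin and the peptide CGRP, stood at 407, 130 and 102 CPM. *Uchl1*, a ubiquitin hydrolase common in neurons, stood at 216, 71.8 and 56.2 CPM. The galanin gene *Gal* stood at 120, 29.2 and 49.0 CPM, but 23.5% of its UMIs came from 1 cell and 51.0% from 5 cells, and without that cell its ratio to all others fell from 3.09 to 2.37. It was 1.22 when the gate was applied after thinning. *Calca* was also uneven, with no UMI in the median cell.

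*Gucy1a1* encodes a subunit of soluble guanylate cyclase, the receptor of nitric oxide. It was 3.07-fold higher at 370 CPM, and its partner subunit *Gucy1b1* 2.36-fold at 115 CPM. Of 5 detected genes of cyclic GMP signalling these 2 passed 2-fold, with *Prkg1*, the kinase downstream, at 1.84. *Gucy1a1* was found in 74.8% of thinned *Shox2*/*Vsnl1*-high cells, 46.3% of cells low in both and 29.7% of *Myl2*-high cells. *Fbxo32*, a muscle ubiquitin ligase subunit, and the kinase gene *Nrk* complete the 12, at 2.96-fold and 2.93-fold.

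**Figure D3:**
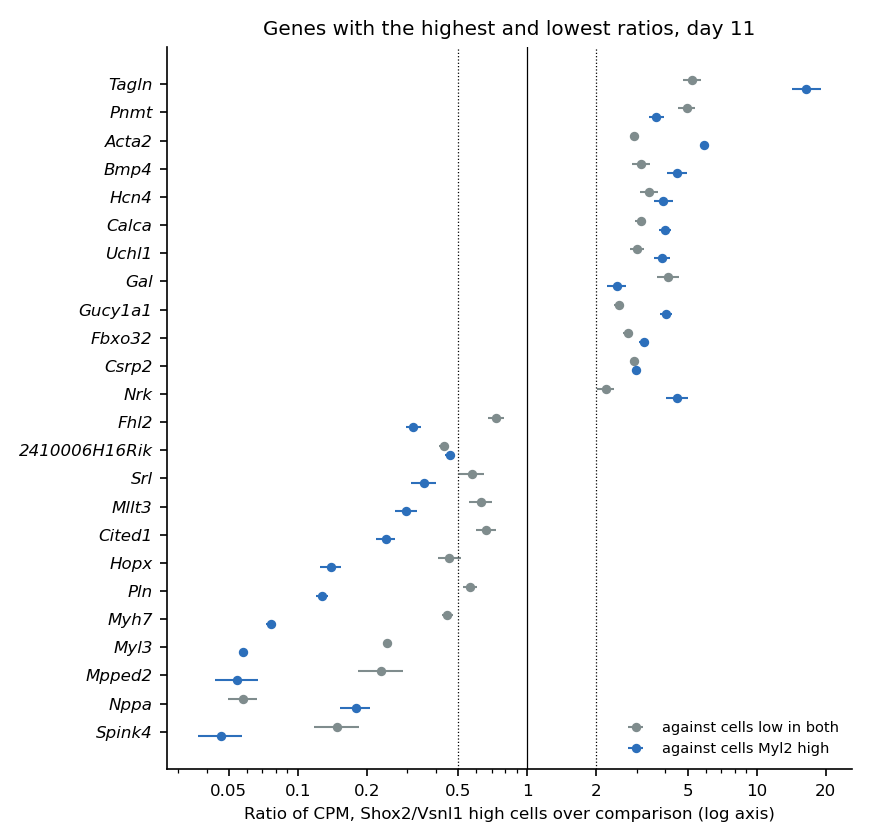
Ratio of CPM in *Shox2*/*Vsnl1*-high cells to cells low in both (grey) and to *Myl2*-high cells (blue) on a log axis, for the 12 genes with the highest and the 12 with the lowest ratio to all other cardiomyocytes at 50 CPM or more. Bars are exact 95% counting intervals, dotted lines mark ratios of 0.5 and 2. All 12 higher genes lie right of 2 in both comparisons, while 7 of the 12 lower genes lie at 0.5 or less against cells low in both.

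Genes of the working chambers were lower. *Nppa* (chr4:148000722-148002079, plus strand) stood at 19.3 CPM (16.7 to 22.2), against 335 (326 to 344) in cells low in both and 108 (103 to 114) in *Myl2*-high cells. Of its 195 UMIs in the *Shox2*/*Vsnl1*-high cells, 29.7% came from 1 cell and 69.2% from 5 cells. Thinned detection was 3.64% (2.05 to 5.93), 15.98% (13.0 to 19.3) and 8.32% (6.01 to 11.2), against 0.211% in endothelial cells. Most cardiomyocytes of every class therefore held no *Nppa* UMI, and cells with it were rarest among the chosen cells. The related peptide gene *Nppb* was sparse everywhere, at 0.198 and 2.72 CPM. *Gja1*, the main working myocardium connexin, stood at 13.0, 27.9 and 29.3 CPM, and *Gja5*, the fast-conducting connexin, at 5.34, 8.96 and 10.2 CPM. Of 10 detected working chamber genes, 7 were at least 2-fold lower than in all others and none higher (median ratio 0.28), but 3 of the 7 (*Hey2*, *Irx4* and *Mpped2*) were under 10 CPM in the chosen cells and were counted only through their level in the others. Against cells low in both 3 were lower (median 0.66).

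The ventricular genes followed *Myl2*, which the rule used. *Myl3* (chr9:110741861-110769798, plus strand), the essential light chain of ventricular myosin, stood at 259 CPM (250 to 270), against 1061 in cells low in both and 4512 in *Myl2*-high cells. *Myh7*, the slow myosin heavy chain, stood at 159, 355 and 2090 CPM, and *Pln*, the phospholamban that brakes the calcium pump, at 106, 189 and 832 CPM. *Hopx* stood at 38.1, 83.3 and 274 CPM, *Mpped2* at 8.90, 38.8 and 164 CPM and *Spink4* at 8.61, 58.2 and 187 CPM. All 6 were lowest in the chosen cells and highest in *Myl2*-high cells. *Myl2* itself was held under the same limit in cells low in both (45.7 CPM, against 39.7 in the chosen cells). Against those cells *Myl3*, *Myh7*, *Hopx*, *Mpped2* and *Spink4* had ratios of 0.244, 0.449, 0.457, 0.230 and 0.148, and *Pln*, at 0.561, did not reach 0.5. *Hey2* and *Irx4*, factors of ventricular identity, showed no such difference, with ratios of 1.04 (0.616 to 1.74) and 0.937 (0.616 to 1.41) against cells low in both.

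Contractile genes held in common by all cardiomyocytes were near 1. *Ttn*, *Myh6*, *Tpm1* and *Des* had ratios of 0.97, 0.93, 1.23 and 1.02. *Actn2*, which encodes the Z-disc protein alpha-actinin, was lower, at 147, 235 and 330 CPM, and skeletal actin *Acta1* was at 0.495 CPM (5 UMIs) against 16.1 in all others. The *Acta1* ratio of 0.0308 rose to 0.473 when the gate was applied after thinning, and 5 cells held 63.3% of its UMIs in cells low in both and 68.0% in *Myl2*-high cells. *Csrp3*, the muscle LIM protein, was at 1.77. Of 15 calcium handling genes *Pln* alone was at 0.5 or less and none was at 2 or more (median 0.94). Of 13 detected energy metabolism genes 2 were lower and none higher (median 0.91), the lower ones being *Mb*, myoglobin, at 0.166 and *Cox8b*, a muscle form of a cytochrome oxidase subunit, at 0.46.

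Atrial genes did not move as a group. *Nr2f1* and *Nr2f2*, factors of atrial identity, stood at 346 and 194 CPM, against 206 and 138 in cells low in both and 118 and 58.9 in *Myl2*-high cells. The atrial light chain *Myl4* was at 7962, 7709 and 6705 CPM. The atrial calcium pump regulator *Sln* stood at 198, 221 and 59.5 CPM, and *Itga6* at 104, 158 and 117 CPM. Of 8 detected atrial genes, *Nr2f1* alone was 2-fold higher than in all others, none was 2-fold higher or lower than in cells low in both, and 3 were higher than in *Myl2*-high cells.

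The levels also changed along *Shox2* plus *Vsnl1* itself. Cells with *Myl2* under its limit were divided into 6 bins of *Shox2* plus *Vsnl1*, at 0, under 3, 3 to 6, 6 to 12, 12 to 24 and 24 or more per 10000, holding 171, 271, 157, 230, 184 and 21 cells. *Hcn4* stood at 26.8, 36.7, 69.1, 121, 175 and 247 CPM from the lowest to the highest bin. *Acta2* stood at 811, 1044, 2389, 3385, 4657 and 5163 CPM. *Nppa* stood at 350, 416, 157, 31.8, 3.89 and 2.47 CPM. *Hcn4* and *Acta2* were thus higher in each bin than in the one before it, on both sides of the limit. *Nppa* was lower in each bin from the third to the fifth.

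*Wnt2* stood at 7.32, 11.0, 36.6, 57.0, 153 and 148 CPM, higher in each bin up to the fifth, with overlapping intervals in the last pair. *Tagln* stood at 9.76, 31.7, 86.7, 240, 195 and 210 CPM, with no further increase across the 3 bins of the chosen cells. *Nkx2-5* ran from 160 CPM in the lowest bin to 98.1 in the 6 to 12 bin and 111 in the highest. The median depth of the bins ran from 14320 to 23192 UMIs, lowest in the highest bin. CPM is not set by depth, but the 21 cells of that bin give wide intervals.

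**Figure D4:**
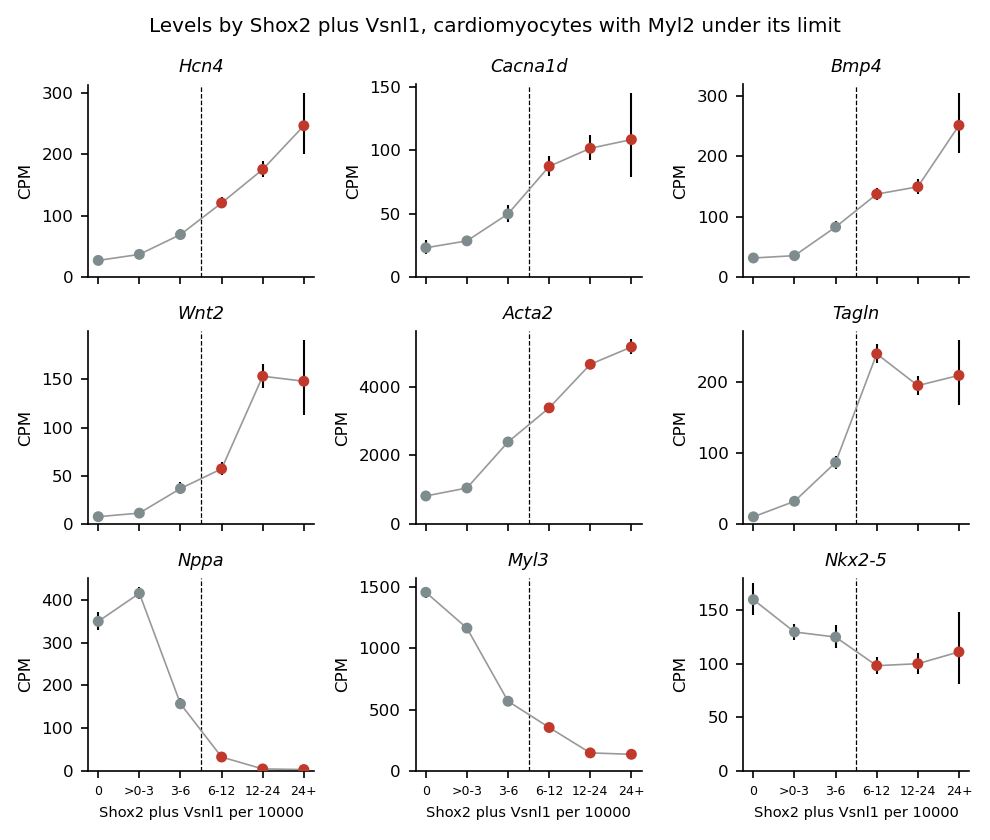
CPM (y axes, linear from 0) of 9 genes in 6 bins of *Shox2* plus *Vsnl1* per 10000 (x axis) among cardiomyocytes with *Myl2* under its limit. Red points are bins of the chosen cells, the dashed line is the limit of 6 and bars are exact 95% Poisson intervals. *Hcn4* runs from 26.8 to 247 CPM, *Nppa* from 350 to 2.47 CPM.

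The chosen cells were not uniform. Among the 412 that could be thinned, 97 held a *Tagln* UMI. These had 7477 CPM of *Acta2* (7363 to 7592), against 3009 (2971 to 3048) in the 315 without. Their *Myl3* was lower, 35.1 against 322 CPM, and their *Isl1* also lower, 15.1 against 33.2 CPM. *Hcn4* differed little, at 162 (146 to 180) against 144 CPM (135 to 152). Divided by *Hcn4* instead, the 192 cells with an *Hcn4* UMI held more *Tagln*, 259 (244 to 274) against 186 CPM (175 to 198), and more *Acta2*, 4324 against 3700 CPM, than the 220 without.

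A further division followed *Tbx3*, found in 53 of the thinned cells. These had 246 CPM of *Hcn4* (218 to 276), against 135 (127 to 142) in the 359 without, and 242 against 81.4 CPM of *Wnt2*. They held less *Calca*, 205 against 437 CPM, and less *Tagln*, 134 against 231 CPM. The 44 cells with *Isl1* had lower *Tagln*, 25.3 against 240 CPM, and higher *Calca*, 765 against 373 CPM. *Tbx3* itself was at 30.6 and 32.9 CPM in cells with and without *Isl1*, and at 32.0 and 32.9 CPM in cells with and without *Tagln*, so these divisions did not separate its level. The cells within these divisions share 1 library and are not replicates.

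Nearest neighbours were then found in 20 principal components of the thinned cardiomyocytes, without the 6 gate genes. Of the 20 nearest cells, 59.9% on average were *Shox2*/*Vsnl1*-high around a *Shox2*/*Vsnl1*-high cell, 22.2% around a cell low in both and 7.32% around a *Myl2*-high cell, where 28.4% of all these cells were *Shox2*/*Vsnl1*-high. At least 50% of the neighbours were of the same kind for 277 of 412 cells (67.2%). The remaining chosen cells lay mostly among other cardiomyocytes by their remaining genes, so the gate and the wider transcriptome overlap in part.

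No proliferation gene reached the 2-fold limit in either direction. *Mki67* or *Top2a* was found in 12.6% (9.57 to 16.2) of thinned *Shox2*/*Vsnl1*-high cells, 17.2% (14.2 to 20.6) of cells low in both and 21.2% (17.6 to 25.1) of *Myl2*-high cells, and in 32.7% of endothelial cells. The unthinned shares were 23.7%, 28.0%, 33.6% and 44.2%. All 15 genes of the list were under 1 (median 0.74) and none was at 0.5 or less. These values moved with the choice of cells, as 6 genes were at 0.5 or less with doublets left out (median 0.527) and the median was 1.01 with a *Shox2* plus *Vsnl1* limit of 3. The intervals of the chosen cells and of cells low in both overlap.

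Of the markers of other cell types, *Cnn1* and *Myh11*, given above, and *Ttr*, *Apoa2* (30 UMIs) and *Upk3b* (14 UMIs) were at least 2-fold higher than in all other cardiomyocytes. Of the *Apoa2* UMIs 90% came from 1 cell, and without it the ratio was 1.30. All 14 *Upk3b* UMIs came from 1 cell. The epicardial and mesothelial list that holds *Upk3b* summed to 12.7 CPM, against 41.4 in all other cardiomyocytes. The 10 mesenchyme markers summed to 299 CPM, against 391.9 in cells low in both, 265 in *Myl2*-high cells and 1472 in cells outside the cardiomyocyte gate. Of the 9 detected, none was 2-fold higher than in all other cardiomyocytes and 1 was lower, and the highest ratio was 1.78 for *Pdgfra*, a receptor of mesenchymal cells (24.8 CPM). The 8 endothelial markers summed to 138 CPM against 2849 in endothelial cells. The macrophage gene *Tyrobp* had 0 UMIs, against 268 in the other cardiomyocytes, which is at least 29.6-fold lower when 3 UMIs over the class are taken as the floor. Only 12 of the other cardiomyocytes held any, and 2 of them held 181 of the 268. In the chosen cells *Fcer1g* and *C1qb* had 4 and 2 UMIs. The neural list summed to 79.7 CPM against 172 in cells low in both. *Ttr*, the endoderm-derived transport protein, was higher, at 38.0 against 9.79 CPM. All 8 endoderm markers summed to 49.6 CPM, against 34.0 in all other cardiomyocytes and 432 in cells outside the cardiomyocyte gate. Of the same list, *Epcam*, *Krt8*, *Krt18* and *Cldn6* were lower. They had 2, 5, 17 and 1 UMIs, against 58, 129, 179 and 22 in cells low in both. *Afp* and *Apoa1* had 53 and 9 UMIs, with 94.3% and 66.7% of them from 1 cell each. The part of *Ttr* in the results was not tested.

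The same limits were applied to the earlier libraries. At days 4 and 5, 0 of 7202 and 0 of 7408 cells passed the cardiomyocyte limits, which allows shares of up to 0.0417% and 0.0405%. At day 6, 416 of 5850 cells passed and 63 of them were *Shox2*/*Vsnl1*-high (15.1%, 11.8 to 19.0), against 28.2% at day 11. After thinning to 5000 UMIs the shares were 21.4% (48 of 224) and 28.3% (377 of 1330). Median depth of the gated cells was 26398 UMIs at day 6 and 20032 at day 11. Day, stage of treatment, library and the version of the counting software, given below, cannot be told apart.

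*Hcn4*, *Tbx3*, *Tbx5*, *Bmp4* and *Wnt2* were also higher than in cells low in both at day 6, in cells that the day 11 values did not choose. *Hcn4* stood at 139 against 62.7 CPM at day 6 (ratio 2.22, 1.90 to 2.59) and at a ratio of 3.40 at day 11. *Tbx3* stood at 29.0 against 4.74 CPM (6.11, 3.98 to 9.38) and *Tbx5* at 112 against 52.4 CPM (2.13, 1.79 to 2.53). *Bmp4* and *Wnt2* were high in both classes and higher in the chosen cells, at 378 against 179 CPM and 506 against 241 CPM. The ratio of *Wnt2* was 2.10 at day 6 and 5.82 at day 11. *Cacna1d*, *Smoc2* and *Pnmt* had ratios of 1.30, 1.45 and 1.32 at day 6, against 2.84, 3.59 and 4.94 at day 11. *Tbx3* and *Tbx5* had ratios of 3.77 and 1.93 at day 11, so theirs were not smaller on the earlier day, while those of *Hcn4*, *Wnt2*, *Cacna1d*, *Smoc2* and *Pnmt* were. Outside the nodal lists, *Calca*, *Gucy1a1*, *Fbxo32* and *Uchl1* were higher at day 6 too, at ratios of 3.26, 2.74, 2.28 and 1.95. *Gal* was lower, at 0.406, and *Nrk*, with 6 UMIs in the day 6 cells, was at 0.859. A higher level at day 6 was thus not particular to the nodal genes.

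Of the smooth muscle genes, *Acta2*, *Tagln*, *Cald1* and *Csrp2* were compared at day 6, and these did not share that relation. *Acta2* was lower in the day 6 cells, at 2863 against 4260 CPM (ratio 0.672, 0.652 to 0.693), where at day 11 the ratio was 2.92. *Tagln* was at 16.3 against 47.4 CPM (0.343, 0.224 to 0.506), where at day 11 it was 5.22. *Cald1* and *Csrp2* were level, at ratios of 1.01 and 1.05, and *Ptn* was lower, at 0.540. *Acta2* in *Shox2*/*Vsnl1*-high cells was 2863 CPM at day 6 and 3973 at day 11, while in cells low in both it was 4260 and 1358 CPM. *Tagln*, in contrast, was 16.3 and 221 CPM in *Shox2*/*Vsnl1*-high cells and 47.4 and 42.3 CPM in cells low in both.

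Among the ventricular genes, *Mpped2*, *Myh7* and *Pln* were lower at day 6 as well, at ratios of 0.180, 0.285 and 0.227, and *Myl3* at 0.696. *Nkx2-5* was level at 1.05 (0.861 to 1.27), against 0.742 (0.688 to 0.800) at day 11. *Nppa* could not be compared, with 3 UMIs in the 63 cells. Of 32 genes with at least 10 UMIs in each class and day, 21 had a ratio over 1 at day 11 and 16 of these also at day 6. The other 11 were under 1 at day 11, 8 of them also at day 6. Most of these genes were picked for their day 11 values. Of all 9147 genes with that many UMIs, 62.4% had a ratio over 1 at day 6, as had 70.9% of those over 1 and 49.4% of those under 1 at day 11. The 16 of 21 is thus close to the share among all genes, while 8 of 11 is above the share of all genes that were under 1 on both days. These are few genes, and the difference was not tested.

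**Figure D5:**
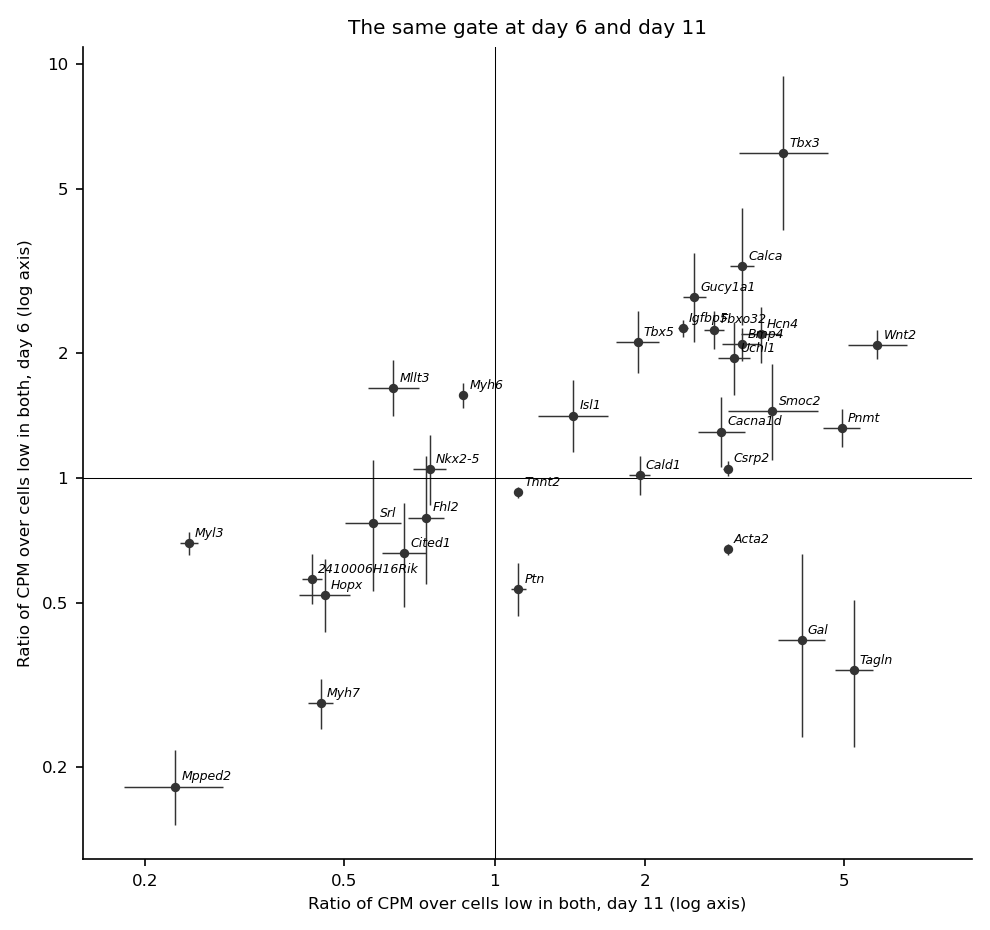
Ratio of CPM in *Shox2*/*Vsnl1*-high cells to cells low in both at day 11 (x axis) and day 6 (y axis), log axes, for 32 genes with at least 10 UMIs in each class and day. Bars are exact 95% counting intervals. *Hcn4*, *Tbx3*, *Wnt2* and *Calca* lie at upper right, while *Tagln*, *Acta2* and *Gal* lie at lower right, over 1 at day 11 and under 1 at day 6.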

How the data were processed

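Mouse gastruloids of the Zx1 line were profiled with Chromium 3′ single-cell RNA sequencing, 1 library per day at days 4, 5, 6 and 11. The authors deposited raw UMI counts per gene and cell barcode, unnormalized, with cells already called. The submitters' processing notes name mm10 and Cell Ranger 3.1.0. The matrix headers of days 4, 5 and 6 also name 3.1.0, but that of day 11 names 6.0.1. Comparisons of day 6 with day 11 therefore cross a change of version, whose part was not tested. The counts were used as deposited, and all CPM, percent and ratio values derive from these deposited counts.

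Cells, gene lists and comparisons were chosen with earlier results of these data known. UMIs were summed over the cells of a class, divided by the sum of all UMIs of those cells and scaled to 1000000, and classes were compared by ratio. Genes at 10 CPM or more over all gated cardiomyocytes entered the counts, called at a ratio of at least 2 or at most 0.5. Named were the 12 highest and 12 lowest ratios at 50 CPM or more (gate, mitochondrial and ribosomal protein genes left out), the markers and the listed genes. Of the listed genes, 2 are not reported here and were left out of the list counts. Endothelial cells had at least 3 UMIs of *Pecam1* plus *Cdh5* and *Myl7* under 30 per 10000. Detection was compared after thinning each cell to 5000 UMIs, which left out 23 *Shox2*/*Vsnl1*-high cells, 42 low in both and 28 *Myl2*-high cells. Doublet scores came from 2 simulated doublets per cell, and doublets were kept in the main values. Neighbours used 1000 variable genes. Intervals were exact Poisson (CPM), exact conditional binomial (ratios) and Clopper-Pearson (shares) at 95%, for counting error only, and a count of 0 was read as up to 3.

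Genes were placed with GENCODE positions on GRCm38, the NCBI name of mm10, and promoter windows came from RefSeq. The ratio step was tested on simulated data. Python 3.11.15, numpy 2.4.6, scipy 1.17.1, pandas 2.3.3, scikit-learn 1.9.0 and matplotlib 3.10.9 were used. Alternatives to the limits, the depth, the level and the comparison cells are given at the end.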

Additional observations from a re-analysis of the deposited data

How the results depend on the processing

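With 1 library per day there was no replicate to leave out. No paired analysis was possible because each day has only 1 sample. Small UMI numbers limit *Tbx18*, *Myh11*, *Nppb* and other genes under 10 CPM.

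The share of gated cardiomyocytes that were *Shox2*/*Vsnl1*-high, 28.2%, followed its limits: 38.4% with a *Shox2* plus *Vsnl1* limit of 3 per 10000, 13.3% with a limit of 12 and 34.3% with a *Myl7* limit of 100. The 110 genes at least 2-fold higher became 37 among genes at 50 CPM or more, 1492 with a minimum of 3 UMIs only and 172 against *Myl2*-high cells alone. The 95 lower genes became 176 with the limit of 12, 20 among genes at 50 CPM or more and 1210 with a minimum of 3 UMIs only. A minimum on level sets how many rare genes enter these counts.

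Of the 12 highest genes, 11 stayed at 2 or more under all 11 alternatives that change the cells or how they are averaged, the exception being *Gal*. Of the 12 lowest, 9 stayed at 0.5 or less, the exceptions being 2410006H16Rik (0.514 with the limit of 3), *Fhl2* (0.574 with the limit of 12) and *Srl* (0.504 with the limit of 12). *Nppa* ran from 0.0194 with the limit of 12 to 0.253 with the limit of 3. *Smoc2* rose to 6.26 with doublets left out, *Ntm* and *Nr2f1* were at 1.89 and 1.77 with the *Myl7* limit of 100, *Tbx18* ran from 1.49 to 5.65 and *Myh11* from 5.83 to 22.9. Among genes at 2-fold or more, the direction of 4 turned: *Hey2* to 1.04 against cells with *Myl2* under its limit, and 3 sparse ones, *Actg2* (0.858, limit of 12), *Lmod1* (0.245, *Myl7* limit of 100) and *Npr1* (1.004 with doublets left out, 1.20 without cells holding *Mki67* or *Top2a*). Of 117 other genes, between 0.5 and 2, 45 stood on the other side of 1 under at least 1 of the 11, among them *Npr3* (0.500 against 1.46) and *Nrg1* (0.327 against 1.26), both with the limit of 12. The smooth muscle and cytoskeletal list held 3 to 7 genes at 2 or more across those 11, 2 against cells low in both and 8 against *Myl2*-high cells. The cause of these shifts was not tested.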
